A study of Mus musculus with 12 samples.

Results

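The 87 genes described here code for subunits of the 5 mitochondrial respiratory chain complexes that are encoded in the nucleus, together with assembly factors that carry the same name stems. They were taken from 12393 measured mouse genes by symbol: names starting with Nduf, Uqcr, Cox4 to Cox8 or Atp5, and the succinate dehydrogenase genes starting with Sdha, Sdhb, Sdhc or Sdhd. The rule reads names only, but it was chosen with earlier results of these data known. Each gene is represented by its brightest probe set, picked by the measured mean signal over all arrays. Complex I held 33 of them, complex II 4, complex III 8, complex IV 16 (6 of which are isoforms of particular tissues) and complex V 17. The other 9 were assembly factors, namely Ndufaf1, Ndufaf3, Ndufaf4, Ndufaf5 and Ndufaf7 for complex I, Sdhaf1, Sdhaf2 and Sdhaf4 for complex II, and the supercomplex factor Cox7a2l. Ndufa4, named for complex I, was counted with complex IV, to which it is now assigned.

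The respiratory chain lies in the inner mitochondrial membrane. Complex I takes electrons from NADH and complex II takes them from succinate, and complexes III and IV pass them on to oxygen while protons are pumped across the membrane. Complex V, the ATP synthase, uses the returning protons to make ATP. Macrophages activated by lipopolysaccharide (LPS, a component of the outer membrane of bacteria) are known to lean on glycolysis, and IL-10 is a cytokine known to restrain macrophage activation.

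The cells were macrophages grown from the bone marrow of 129-SvEv-Tac mice over 5 days in medium conditioned by L cells, a source of macrophage growth factor. Every group lacked Il10, so no group was wild type. IL10-/- cells were compared with p50-/-IL10-/- cells, which also lack the p50/p105 subunit of the transcription factor NF-kB. Each genotype was either left without stimulus, treated with LPS at 1 ng/ml, or treated with LPS at 1 ng/ml together with IL-10 at 0.3 ng/ml, and was harvested at 4 h. There were 6 groups of 2 arrays, which the labels call biological replicates. The sources used here do not say which mice or cultures the arrays came from, so p-values measure only the spread between these samples. The values are log2 signals made with RMA, and because probe sets differ in brightness the signals of different genes are not set against each other.

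Promoter sequence was searched for 73 of the 87 genes, in RefSeq windows of the GRCm38.p6 build. The windows run from 250 bases before to 50 bases after the start of each gene. Some windows were left out before the search, all those of a single chromosome among them, for members and for the background alike. Letters of factors known to act on nuclear genes of mitochondria were searched on both strands, and no window of a member held letters of more than 1 of these motifs. The NRF1 motif, the letters in capitals in Atp5g2, stood in 6 windows (8.22%, against 0.977% of all 27025 windows). The YY1 letters AAGATGGC stood in 8 (10.96%, against 2.88%), the ETS letters ACTTCCGG in 5 (6.85%, against 4.00%) and the ERR letters TCAAGGTCA in 2 (2.74%, against 0.407%). The NF-kB motif, GGGA and TTTCC with any base between, stood in 0 of the 73 windows, against 0.385% of all windows. At least 1 of the first 4 motifs was present in 21 windows (28.8%, against 7.98%). Of the 21 windows of members that fell with LPS in both genotypes, 4.76% held NRF1, 14.3% YY1, 14.3% ETS and 4.76% ERR letters. The shares of the 52 other members were 9.62%, 9.62%, 3.85% and 1.92% in that order. A match describes the letters only, and its relation to the LPS response was not tested. Atp5g3 (ERR), Atp5k (NRF1) and Uqcrh (ETS) held a match within 150 bases before the start and were called lower with LPS in neither genotype. They are not printed. The 150 bases before the start are printed for 4 genes that were lower with LPS in at least 1 genotype and hold a match there, and for Ndufb1, the member that rose with LPS in both. Capitals mark the matches, which are NRF1 in Atp5g2 and Ndufaf4, ETS in Atp5h, and ETS on the opposite strand in Uqcr11. Their first bases lie 42, 113, 39 and 66 bases before the start in that order. Atp5g2 lies at chr15:102671048-102671197 and Atp5h at chr11:115419920-115420069, Uqcr11 at chr10:80406822-80406971 and Ndufb1 at chr12:101975739-101975888, all on the minus strand, and Ndufaf4 at chr4:24897933-24898082 on the plus strand.
Atp5g2: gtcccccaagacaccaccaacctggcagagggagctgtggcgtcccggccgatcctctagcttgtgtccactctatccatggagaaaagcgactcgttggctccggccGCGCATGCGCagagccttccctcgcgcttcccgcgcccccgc
Ndufaf4: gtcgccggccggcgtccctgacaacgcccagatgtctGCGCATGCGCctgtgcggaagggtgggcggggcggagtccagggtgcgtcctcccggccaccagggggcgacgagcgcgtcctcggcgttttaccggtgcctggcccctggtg
Atp5h: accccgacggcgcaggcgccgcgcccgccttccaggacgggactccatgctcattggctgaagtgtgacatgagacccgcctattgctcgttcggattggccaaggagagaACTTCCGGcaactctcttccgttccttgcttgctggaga
Uqcr11: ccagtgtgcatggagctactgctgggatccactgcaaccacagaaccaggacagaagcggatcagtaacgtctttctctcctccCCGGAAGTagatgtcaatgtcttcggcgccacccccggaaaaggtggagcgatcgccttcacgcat
Ndufb1: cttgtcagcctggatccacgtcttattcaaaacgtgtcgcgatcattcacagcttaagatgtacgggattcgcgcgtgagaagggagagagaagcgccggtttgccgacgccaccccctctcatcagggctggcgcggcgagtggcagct

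Across the 12 arrays the members gave strong and even signals. The mean signal was above 10 for 59 of the 87 genes, and the 6 group means spanned under 0.5 for 72 of them. Only Ndufb1 spanned 1 or more. The median span was 0.37 for the members and 0.36 for all genes. Cox7c, a small subunit of complex IV, lay below the lower quartile of the array on all 12 arrays, from 5.13 to 5.46, so its values say little. The macrophage markers lay above the lower quartile on all arrays (9 of 9). They ran from Lyz2, at 13.98 or more, to Mertk, which went down to 7.30, near the median of 7.28 over all genes. All 7 neutrophil genes measured lay above the lower quartile on all arrays as well, so passing it does not tell these cell types apart. The labels were not checked through the deleted genes: Il10 gave signals from 6.54 to 9.11, and where its probes lie relative to the deletion is not stated by the labels. In such bulk samples fewer cells of a type and less RNA per cell cannot be told apart. RMA aligns the arrays (medians 6.92 to 6.97), so every difference is relative to the other genes.

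LPS lowered part of the respiratory chain by small amounts in both genotypes. In IL10-/- cells 22 of 87 members fell and 1 rose, where 17.1% of all genes fell and 7.76% rose (limma, Benjamini-Hochberg adjusted p under 0.05 over all genes). Among the same genes 41 fell and 2 rose in p50-/-IL10-/- cells, where 22.1% of all genes fell and 10.3% rose. As shares of the members that is 25.3% and 47.1% lower. The median difference over the members was -0.21 and -0.26, against -0.0081 and -0.012 over all genes. Among the 1626 genes with a mean signal above 10, a group more like the members in brightness, 20.2% and 29.6% fell and the median was -0.076 and -0.13. By complex, the shares that fell in IL10-/- and in p50-/-IL10-/- cells were 30.3% and 54.5% in complex I, 50% and 75% in complex II, and 25% and 50% in complex III. They were 6.25% and 37.5% in complex IV, 29.4% and 41.2% in complex V, and 22.2% and 33.3% among the assembly factors, to be read against the 17.1% and 22.1% of all genes. No fall reached 2-fold: the largest were -0.51 for Ndufaf7 in IL10-/- cells and -0.62 for Ndufaf4 in p50-/-IL10-/- cells.

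**Figure D1:**
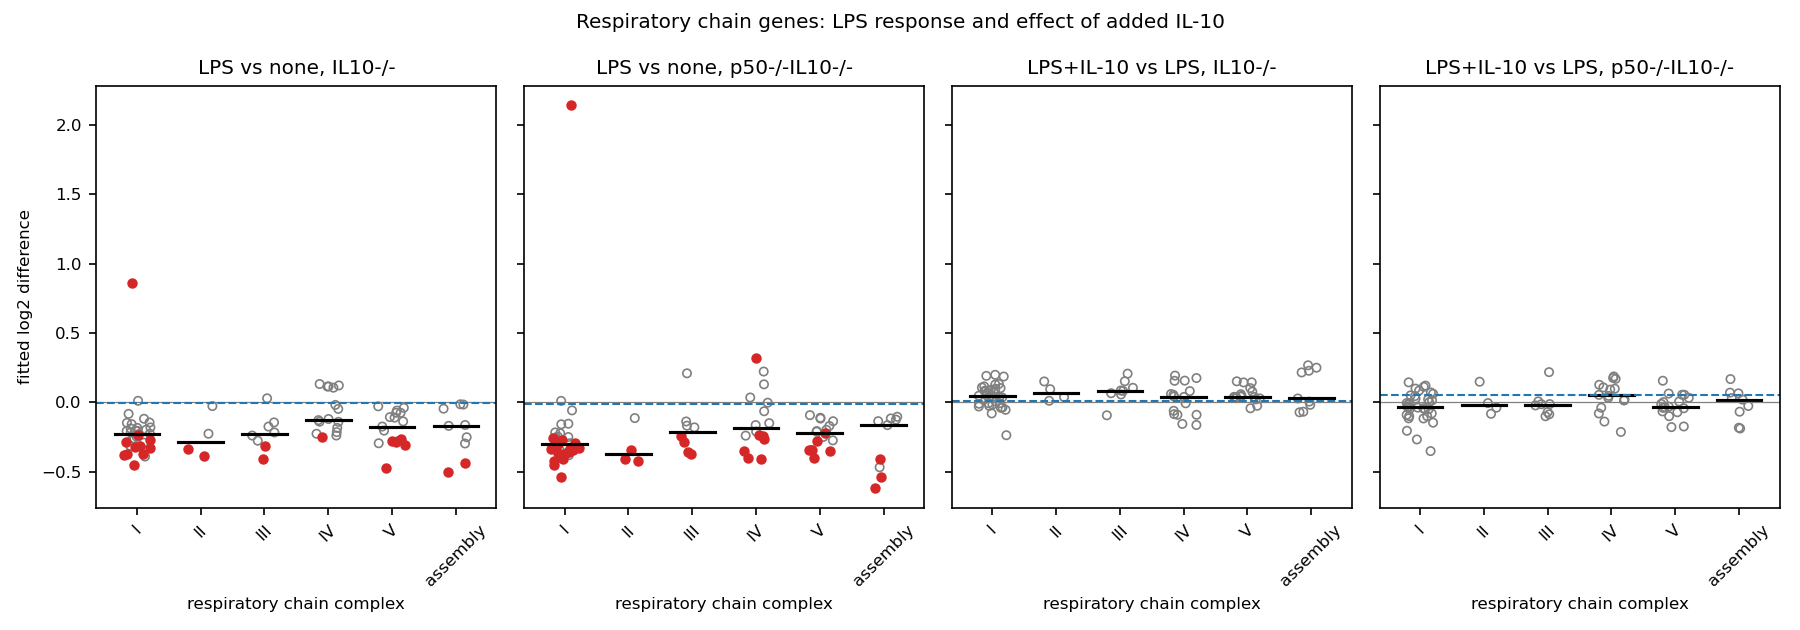
Fitted log2 differences of the 87 genes by complex, for LPS against no stimulus (left pair) and LPS with IL-10 against LPS (right pair), in each genotype. Each point is 1 gene, filled red where its adjusted p was under 0.05; black bars are medians of the complex and the dashed line is the median of all genes. With LPS 22 and 41 genes lie among the red points below 0, and with added IL-10 no point is red.

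The direction was wider than the calls. In IL10-/- cells both LPS arrays lay below both unstimulated arrays for 63 of 87 members and above them for 3, against 32.8% and 24.4% of all genes; 24.8% of all genes were called in this comparison in either direction. The counts were 74 and 5 in p50-/-IL10-/- cells, against 37.4% and 28.3%, and 32.4% of all genes were called. The number of calls depended on single arrays, and these counts do not say which genes they hold. Against 23 calls in IL10-/- cells, a fit without unstimulated array 2 made 8 (9.20% of members, against 15.7% of all genes), without unstimulated array 1 15, and without LPS array 1 11. A fit to the 4 arrays of this comparison alone made 9 (10.3% of members, against 15.4% of all genes). Against 43 calls in p50-/-IL10-/- cells, 15 were made without unstimulated array 2 (17.2% of members, against 22.5% of all genes), 22 without LPS array 1 and 20 without LPS array 2. Of the fits without 1 array named here, only that without LPS array 1 of p50-/-IL10-/- cells called a larger share of members than of all genes. The share of members was also the larger without LPS array 2 in IL10-/- cells and without unstimulated array 1 in p50-/-IL10-/- cells. In the p50-/-IL10-/- unstimulated group, array 2 exceeded array 1 by a median of 0.11 over the members.

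Averaged over the 72 subunits of complexes I to V without tissue isoforms and assembly factors, unstimulated IL10-/- arrays stood at 10.94 and 10.96, LPS arrays at 10.70 and 10.79, and arrays with both agents at 10.77 and 10.84. The same averages in p50-/-IL10-/- cells were 10.94 and 11.06 without stimulus, 10.77 and 10.76 with LPS, and then 10.77 and 10.73 after IL-10 was added. In both genotypes the LPS arrays lay below the unstimulated arrays with no overlap. The means over all genes stayed between 7.44 and 7.49 on all 12 arrays.

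**Figure D2:**
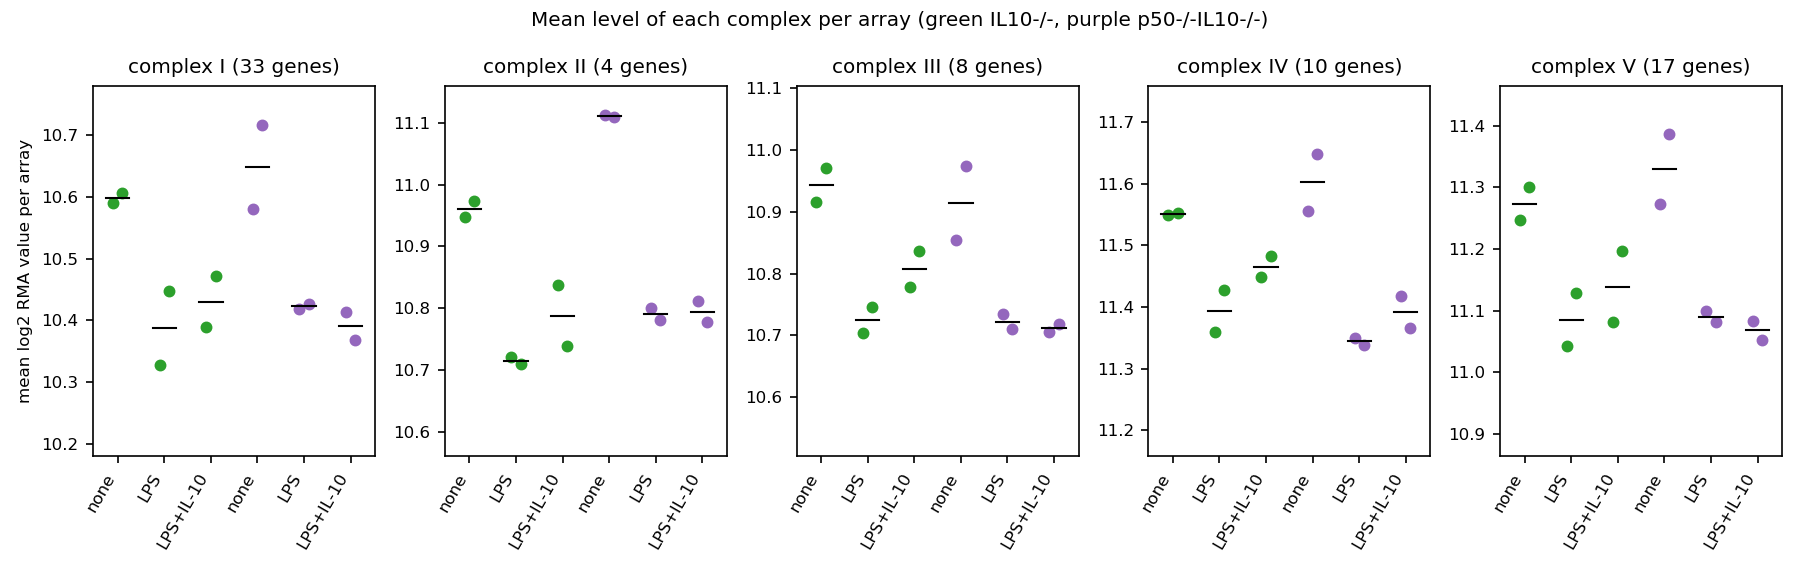
Mean log2 signal of the members of each complex (tissue isoforms and assembly factors left out) on every array, IL10-/- in green and p50-/-IL10-/- in purple, with bars at the group means. For complex II the unstimulated arrays reach 10.95 and 10.97 in IL10-/- cells and 11.11 on both arrays of p50-/-IL10-/- cells, and all LPS arrays lie between 10.71 and 10.80.

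Complex I, with the most members, also gave the most calls, though the share called was larger in complex II. With LPS, 10 of its 33 members fell in IL10-/- cells and 18 when p50 was absent too, with medians of -0.23 and -0.30. Among the 6 core subunits, which carry the electron path from NADH to ubiquinone, the counts were 4 and 5, against 6 and 13 of the 27 accessory subunits. Ndufs7, the iron-sulphur subunit next to the ubiquinone site, read 10.19 and 10.20 without stimulus and 9.85 and 9.80 with LPS in IL10-/- cells. It read 10.15 and 10.31, then 9.78 on both LPS arrays, in p50-/-IL10-/- cells. The groups did not overlap, and Ndufs7 fell by 0.37 ± 0.08 (SE, limma, adjusted p 0.00613) and by 0.45 ± 0.08 (adjusted p 0.00145).

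Ndufs8, another iron-sulphur subunit of complex I, read 11.47 on both unstimulated IL10-/- arrays and 11.09 and 11.19 with LPS. Its p50-/-IL10-/- values went from 11.42 and 11.52 to 10.82 and 11.04. The changes were -0.33 ± 0.09 (limma, adjusted p 0.0168) and -0.54 ± 0.09 (adjusted p 0.000712). Ndufs3 and Ndufv2, core subunits as well, also fell in both genotypes, by 0.38 and 0.37 for Ndufs3 and by 0.28 and 0.36 for Ndufv2. Other core subunits gave fewer calls. Ndufs1, the largest iron-sulphur subunit, differed by -0.23 ± 0.08 in IL10-/- cells (adjusted p 0.0561) and fell by 0.26 ± 0.08 in p50-/-IL10-/- cells (adjusted p 0.0256). Ndufv1, which binds NADH, read 10.07 and 10.08 without stimulus and 9.72 and 10.02 with LPS in IL10-/- cells, and 10.10 and 10.24, then 9.88 and 9.92, in p50-/-IL10-/- cells. Its differences of -0.21 ± 0.11 and -0.27 ± 0.11 passed in neither genotype (limma, adjusted p 0.212 and 0.0829).

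Among the accessory subunits of complex I, Ndufa6 read 10.33 and 10.38 without stimulus and 9.83 and 9.97 with LPS in IL10-/- cells, a fall of 0.45 ± 0.09 (limma, adjusted p 0.00354). The p50-/-IL10-/- arrays read 10.12 and 10.26, then 9.92 and 9.86, a fall of 0.30 ± 0.09 (adjusted p 0.0230). Ndufa8 went from 11.07 and 11.08 to 10.65 and 10.73 in IL10-/- cells, and from 11.05 and 11.23 to 10.75 and 10.69 in p50-/-IL10-/- cells (falls of 0.38 ± 0.08 and 0.42 ± 0.08). Ndufa3, Ndufa7, Ndufa13 and Ndufv3 also fell in both. Ndufa5, Ndufb2, Ndufb5, Ndufb7, Ndufb8, Ndufb9 and Ndufc1 passed in p50-/-IL10-/- cells and not in IL10-/- cells, which does not show that the genotypes differ. Apart from Ndufb1, the members of complex I that were not below their unstimulated level were Ndufs4 in IL10-/- cells (0.010 ± 0.10) and Ndufa10 in p50-/-IL10-/- cells (0.0099 ± 0.12), neither of them called.

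**Figure D3:**
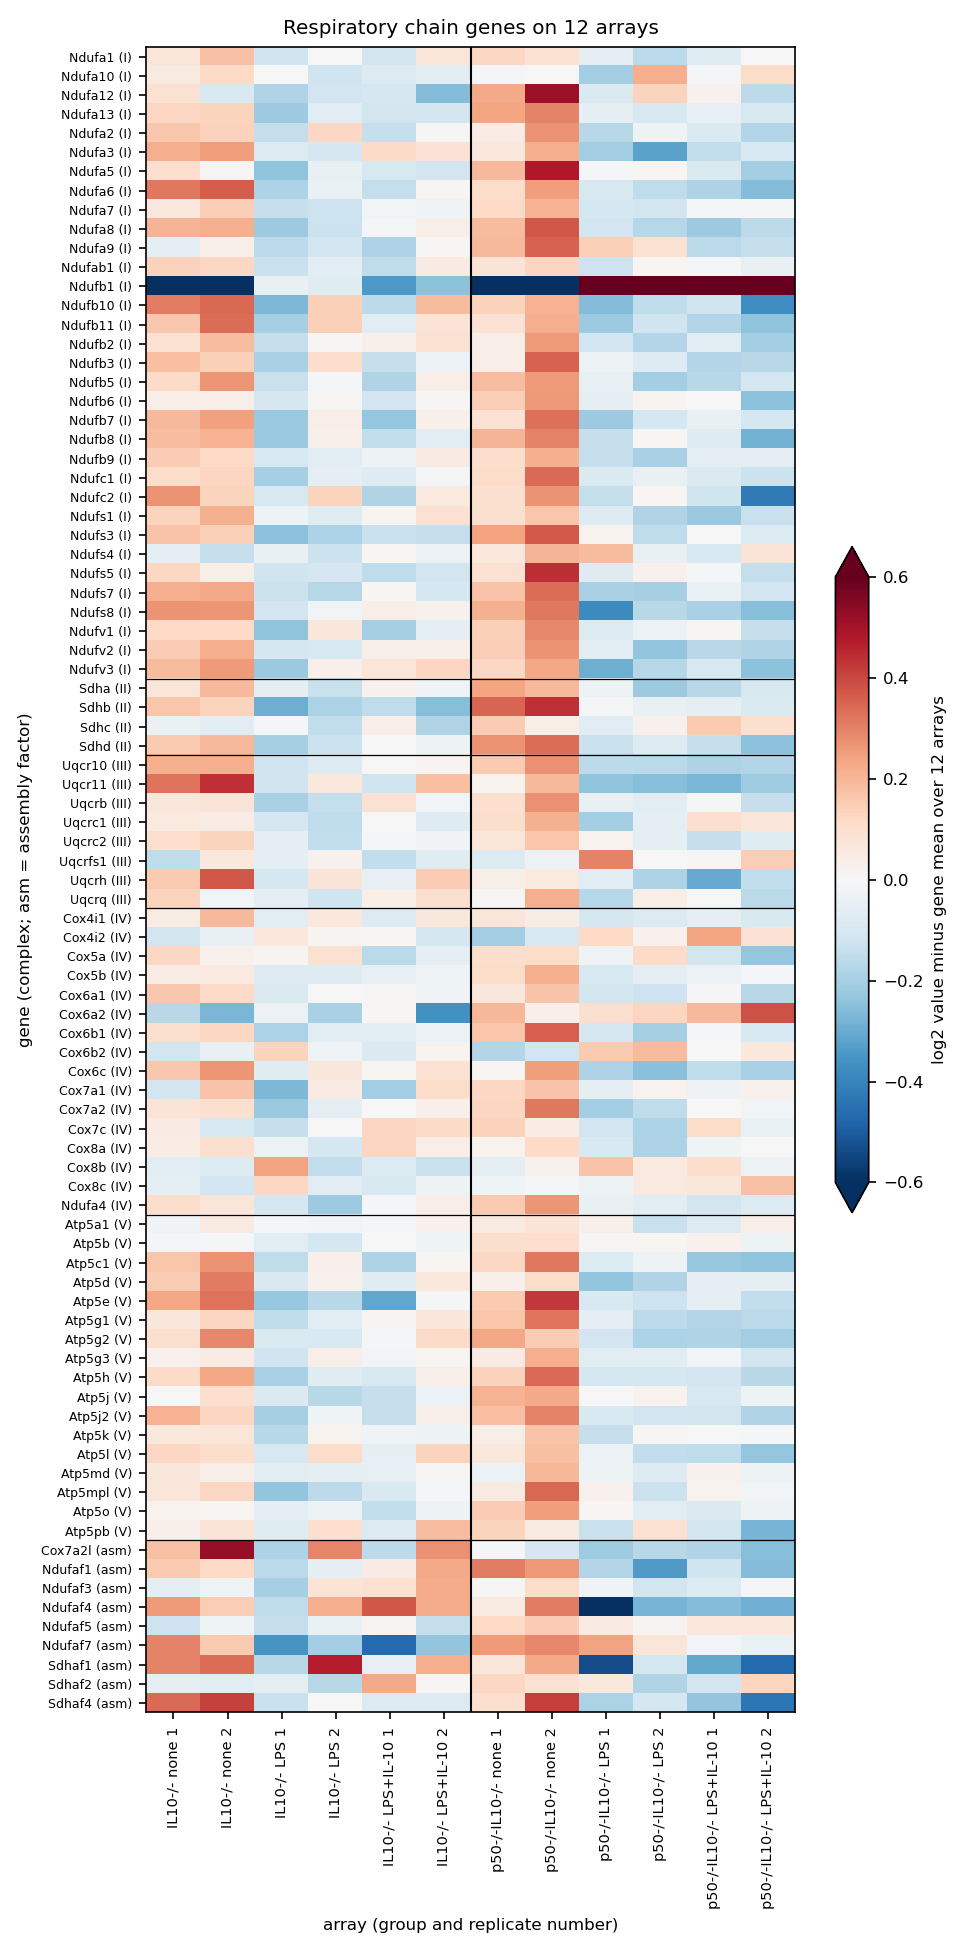
Log2 signal of each of the 87 genes on each of the 12 arrays minus the gene's mean over the arrays (red above, blue below, colours capped at 0.6), ordered by complex, with IL10-/- arrays to the left of the vertical line. Most rows are red in the unstimulated columns and blue in the LPS columns, and Ndufb1 runs the other way.

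Complex II, which is also succinate dehydrogenase of the citric acid cycle, has 4 subunits, all of which were measured. Sdhb, its iron-sulphur subunit, read 11.81 and 11.77 without stimulus and 11.35 and 11.45 with LPS in IL10-/- cells. Its values were 11.99 and 12.08, then 11.63 and 11.60, in p50-/-IL10-/- cells. Sdhb fell by 0.39 ± 0.08 (limma, adjusted p 0.00328) and by 0.42 ± 0.08 (adjusted p 0.00141), with no overlap. Sdhd, a membrane anchor, went from 10.94 and 10.97 to 10.58 and 10.65, and from 11.05 and 11.11 to 10.64 and 10.70, falls of 0.34 ± 0.07 and 0.41 ± 0.07. Sdha, the flavoprotein that oxidises succinate, differed by -0.23 ± 0.09 in IL10-/- cells (limma, adjusted p 0.0823) and fell by 0.34 ± 0.09 in p50-/-IL10-/- cells (adjusted p 0.0107). Sdhc, the other anchor, overlapped between the groups in IL10-/- cells, at 10.13 and 10.10 against 10.15 and 10.02, and its differences of -0.028 ± 0.09 and -0.11 ± 0.09 were not called.

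In complex III the fall with LPS was called for 2 of 8 members in IL10-/- cells and for 4 in the other genotype. The small subunit Uqcr10 read 11.21 on both unstimulated IL10-/- arrays and 10.88 and 10.91 with LPS. With p50 also absent it read 11.15 and 11.27, then 10.84 and 10.83. The falls were 0.31 ± 0.07 (limma, adjusted p 0.00734) and 0.37 ± 0.07 (adjusted p 0.00196). Uqcr11, whose promoter is printed above, went from 10.39 and 10.50 to 9.95 and 10.13 in IL10-/- cells and from 10.08 and 10.26 to 9.82 and 9.81 in p50-/-IL10-/- cells, falls of 0.41 ± 0.11 and 0.36 ± 0.11. Of the large core proteins, Uqcrc1 differed by -0.18 ± 0.08 and -0.29 ± 0.08 and was called in the second (adjusted p 0.0159), and Uqcrc2 differed by -0.22 ± 0.07 and -0.14 ± 0.07 and was called in neither. Uqcrfs1, the Rieske iron-sulphur protein that hands electrons to cytochrome c1, differed by 0.028 ± 0.11 and 0.21 ± 0.11 and was not called either.

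Complex IV had 10 subunits of general use and 6 tissue isoforms. Of the 10, Ndufa4 alone fell in IL10-/- cells (-0.25 ± 0.07, limma, adjusted p 0.0312). In p50-/-IL10-/- cells 6 fell, namely Cox6b1, Cox7a2, Cox6c, Ndufa4, Cox5b and Cox6a1. Cox6b1 read 12.57 and 12.77 without stimulus and 12.31 and 12.21 with LPS in p50-/-IL10-/- cells, a fall of 0.41 ± 0.09 (adjusted p 0.00400). In IL10-/- cells it read 12.50 and 12.53, then 12.22 and 12.34, and was not called. Cox4i1, a large nuclear subunit, differed by -0.12 ± 0.08 and -0.15 ± 0.08, and Cox5a by -0.019 ± 0.08 and -0.065 ± 0.08, with no call.

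None of the tissue isoforms of complex IV was called lower. Their median difference with LPS was 0.11 in IL10-/- cells and 0.082 in p50-/-IL10-/- cells, with 0 of 6 lower in either (limma; 0 and 2 of 6 at an unadjusted p under 0.05). Cox6b2, the testis isoform of Cox6b1, read 5.52 and 5.58 without stimulus and 5.85 and 5.89 with LPS in p50-/-IL10-/- cells, a rise of 0.32 ± 0.08 (adjusted p 0.0114) near the bottom of the signal range. Cox4i2, known from lung and from hypoxia, differed by 0.11 ± 0.09 and 0.22 ± 0.09. The muscle isoforms Cox6a2, Cox7a1 and Cox8b and the testis isoform Cox8c lay between -0.16 and 0.13 in both genotypes. Group means of Cox4i2, Cox7a1 and Cox8b stayed under 6.5 in all 6 groups.

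Complex V had 5 of 17 members lower in IL10-/- cells and 7 lower where p50 was missing as well. Atp5a1 and Atp5b, the alpha and beta subunits that form the catalytic head, were called in neither genotype. Atp5a1 read 12.05 and 12.12 without stimulus and 12.06 and 12.05 with LPS in IL10-/- cells, and 12.12 and 12.15, then 12.10 and 11.94, in p50-/-IL10-/- cells (-0.030 ± 0.08 and -0.12 ± 0.08, limma, adjusted p 0.845 and 0.324). Atp5b differed by -0.076 ± 0.07 and -0.093 ± 0.07 (adjusted p 0.484 and 0.347). Atp5e, the epsilon subunit of the central stalk, read 11.02 and 11.12, then 10.56 and 10.63, in IL10-/- cells, a fall of 0.48 ± 0.11 (adjusted p 0.0109). Without p50 as well it read 10.95 and 11.22, then 10.70 and 10.67, a fall of 0.40 ± 0.11 (adjusted p 0.0204). The delta subunit Atp5d, the c-ring gene Atp5g2, the stalk subunit Atp5h and the membrane subunit Atp5j2 fell in both genotypes as well, by 0.27 to 0.35. All 17 members lay below their unstimulated level in both.

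Of the assembly factors, 2 of 9 fell with LPS in IL10-/- cells and 3 in the other genotype. Sdhaf4, which helps to mature the flavoprotein of complex II, fell in both, from 9.02 and 9.09 to 8.55 and 8.68 and from 8.78 and 9.10 to 8.49 and 8.57 (falls of 0.44 ± 0.11 and 0.41 ± 0.11, limma, adjusted p 0.0142 and 0.0161). Ndufaf4, an early factor of complex I, read 9.03 and 8.92, then 8.62 and 8.99, in IL10-/- cells, where the groups overlapped. In p50-/-IL10-/- cells it read 8.83 and 9.08, then 8.17 and 8.49, a fall of 0.62 ± 0.14 (adjusted p 0.00640). Ndufaf1, which also acts on complex I, fell in p50-/-IL10-/- cells from 7.66 and 7.62 to 7.18 and 7.02 (-0.54 ± 0.09, adjusted p 0.00106). Ndufaf7, an arginine methyltransferase of complex I assembly, fell in IL10-/- cells from 6.82 and 6.67 to 6.17 and 6.32 (-0.51 ± 0.10, adjusted p 0.00402) and read 6.78 and 6.81, then 6.76 and 6.59, in p50-/-IL10-/- cells.

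The LPS comparisons of both genotypes share no array, but the same model gave each gene the same standard error in both. The calls of the genotypes are therefore not independent, and how much of their overlap follows from this was not tested. Of the members, 21 fell in both, which is 95.5% of the 22 in IL10-/- cells and 51.2% of the 41 called in the other genotype. Over all genes the 1802 that fell in both made 85.2% and 65.8% of the lists. Both differences were below 0 for 78 of 87 members (89.7%), against 40.7% of all genes. By complex, the shared 21 were 10 of complex I, 2 of complex II, 2 of complex III, 1 of complex IV, 5 of complex V and 1 assembly factor. The test of the difference between genotypes called 1 member, Ndufb1, where 1.19% of all genes were called. An unadjusted p under 0.05 was reached by 3 members (3.45%, against 10.0% of all genes). They were Ndufb1, Ndufaf7 (0.39 ± 0.14, adjusted p 0.346) and Ndufaf4 (-0.45 ± 0.20, adjusted p 0.488, limma). The 95% interval of the difference reached a median of 0.28 to either side, and for 78 of 87 members it lay within 0.5 of 0.

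Ndufb1, a small accessory subunit of complex I, was the member that rose with LPS in both genotypes. It read 8.17 and 8.24 without stimulus and 9.08 and 9.05 with LPS in IL10-/- cells, and 8.33 and 8.14, then 10.61 and 10.15, in p50-/-IL10-/- cells. The unstimulated levels of the genotypes overlapped, and the LPS levels did not. Ndufb1 rose by 0.86 ± 0.15 (limma, adjusted p 0.00162) and by 2.14 ± 0.15 (adjusted p 2.48e-06), ranks 411 and 120 among the increases of 12393 genes. The difference between these responses was 1.28 ± 0.21 (adjusted p 0.0180, 95% interval up to 1.75). In 5 of 8 fits without 1 array that call ended, at an adjusted p of up to 0.0970 without unstimulated array 2 of p50-/-IL10-/- cells. Ndufb1 is measured by 1 probe set. Its start in the RefSeq gene table lies head to head with that of Cpsf2, a subunit of the mRNA cleavage machinery, and 265 bases of the promoter windows are shared. Cpsf2, chosen after its values were seen, rose by 0.59 ± 0.12 (adjusted p 0.00345) and 0.82 ± 0.12 (adjusted p 0.000294), and its difference between genotypes was 0.23 ± 0.16 (adjusted p 0.779). No motif searched was found in the window of Ndufb1 printed above.

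**Figure D4:**
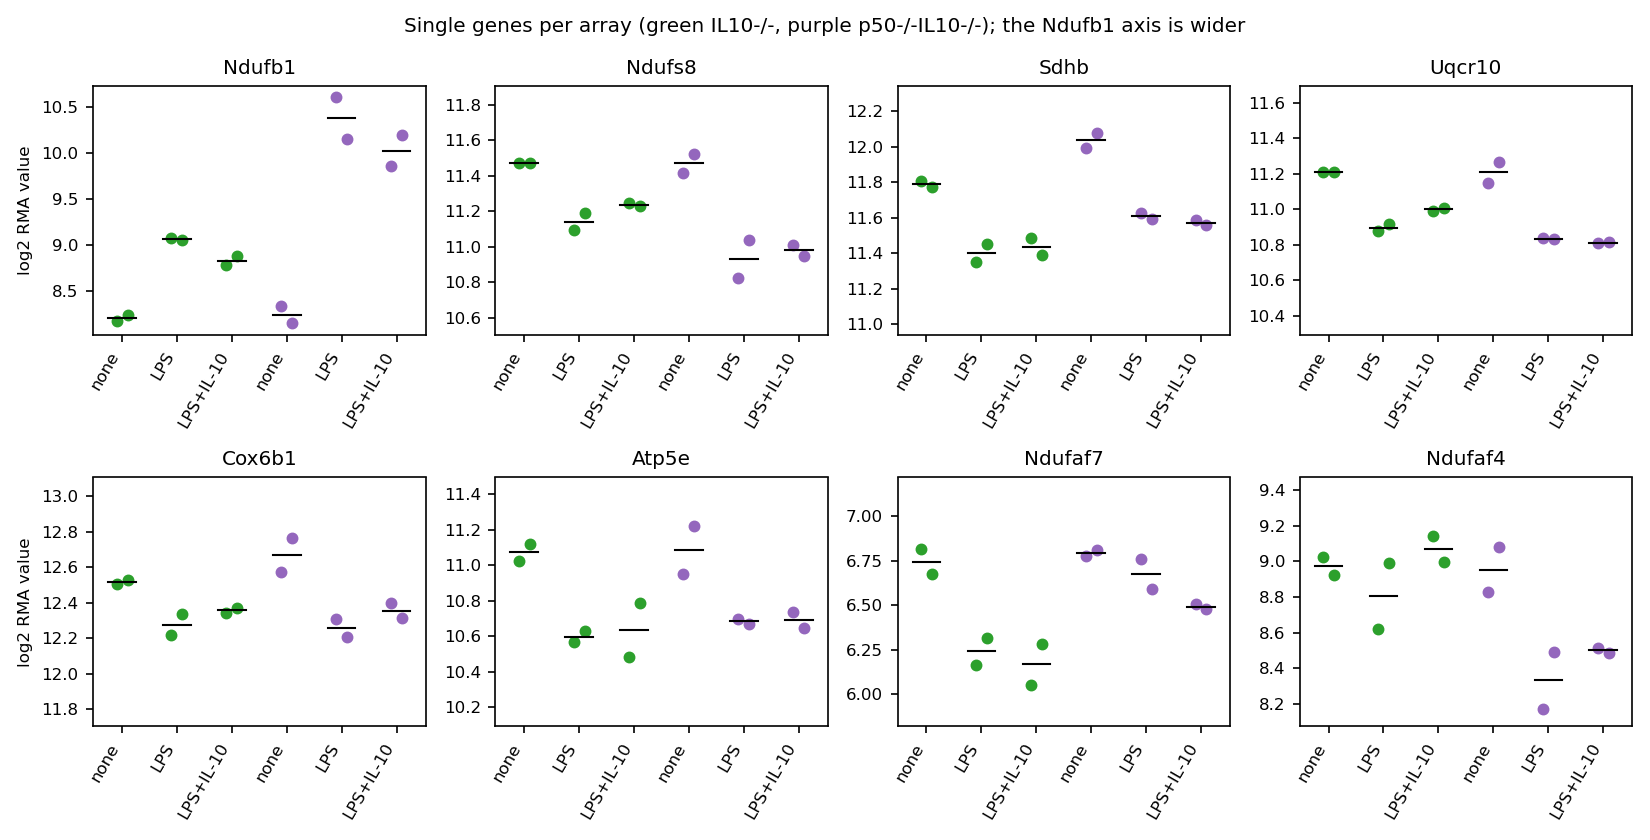
Log2 signal of 8 members on every array (IL10-/- green, p50-/-IL10-/- purple, bars at group means); the Ndufb1 axis covers a wider range than the others. Ndufb1 rises with LPS to 10.61 and 10.15 in p50-/-IL10-/- cells, while Sdhb, Ndufs8, Uqcr10 and Atp5e lie lower on all LPS arrays than on the unstimulated arrays of the same genotype.

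Addition of IL-10 to LPS called no member. In IL10-/- cells 0 of 87 passed, where 6.17% of all genes did, and in p50-/-IL10-/- cells 0 of 87, where 6.57% did (limma). At an unadjusted p under 0.05 there were 5 members (5.75%, against 17.0% of all genes) and 4 members (4.60%, against 23.4%). The median difference was 0.046 and -0.012, against 0.010 and 0.053 over all genes. The lowest adjusted p were those of Ndufaf1 in IL10-/- cells (0.25 ± 0.09, adjusted p 0.183) and Ndufa9 in p50-/-IL10-/- cells (-0.27 ± 0.09, adjusted p 0.10). The 95% interval of a difference reached a median of 0.20 to either side, and it lay within 0.5 of 0 for 84 and 85 of the 87 members. These intervals are not adjusted for the number of genes tested. With 2 arrays a group, member differences from -0.24 to 0.27 in IL10-/- cells went uncalled. So did those from -0.35 to 0.22 in p50-/-IL10-/- cells, and changes within these ranges may have been missed. Uqcrq, a small subunit of complex III, was called with IL-10 in p50-/-IL10-/- cells when probe sets marked as shared were left out (0.30 ± 0.08, adjusted p 0.0457), and differed by -0.013 ± 0.11 otherwise (adjusted p 0.960).

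In IL10-/- cells 35 of 87 members lay higher on both arrays with IL-10 than on both LPS arrays and 4 lay lower, against 22.5% and 17.2% of all genes. For p50-/-IL10-/- cells 16 lay higher and 19 lower, against 37.8% and 19.2%. Complex III in IL10-/- cells averaged 10.70 and 10.75 with LPS and 10.78 and 10.84 with IL-10 added, and 10.73 and 10.71, then 10.71 and 10.72, in p50-/-IL10-/- cells. Sdhb read 11.35 and 11.45 with LPS and 11.49 and 11.39 with IL-10 in IL10-/- cells, which overlap. Ndufb1 read 9.08 and 9.05, then 8.78 and 8.88, in IL10-/- cells (-0.24 ± 0.15, limma, adjusted p 0.497), and 10.61 and 10.15, then 9.86 and 10.19, in p50-/-IL10-/- cells (-0.35 ± 0.15, adjusted p 0.185). The genotypes' IL-10 effects differed for 0 of 87 members, where 0.137% of all genes were called. At an unadjusted p under 0.05 there were 2 members (2.30%, against 11.7% of all genes).

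Set against no stimulus, LPS with IL-10 gave 9 lower members and 1 higher in IL10-/- cells, where 12.5% of all genes were lower and 6.94% higher. The same comparison gave 48 lower and 2 higher in p50-/-IL10-/- cells, where 21.2% and 16.7% were. In either direction that is 10 and 50 members, where 19.5% and 37.9% of all genes were called. These comparisons share their unstimulated arrays with those of LPS alone. The median member difference was -0.14 and -0.28, against -0.0029 and 0.046 over all genes. The 9 in IL10-/- cells were Ndufaf7, Sdhaf4, Atp5e, Ndufa6, Sdhb, Uqcr11, Ndufs3, Ndufs7 and Ndufa13, from -0.58 to -0.24. With the replicate number as a block within genotypes the calls of Ndufs7 and Ndufa13 ended (limma, adjusted p 0.0503 and 0.0651, against 0.0378 and 0.0479), and Ndufaf7 was the only one of the 10 called in every alternative that tested it. In p50-/-IL10-/- cells complex I had 24 of 33 lower, complex II 3 of 4, complex III 4 of 8, complex IV 4 of 16, complex V 9 of 17 and the assembly factors 4 of 9. The largest falls there were those of Sdhaf4 (-0.60 ± 0.11, limma, adjusted p 0.00203), Sdhd (-0.49 ± 0.07, adjusted p 0.000525) and Ndufs8 (-0.49 ± 0.09, adjusted p 0.00150). Next in size came Ndufa5, Ndufaf1, Ndufa8, Sdhb, Ndufaf4, Atp5c1 and Ndufc2. The reference subunits Ndufs1, Sdha, Uqcrc2 and Cox5a were called lower there too, but none of these calls passed in every alternative. That of Cox5a ended without probe sets marked as shared (limma, adjusted p 0.368). That of Uqcrc2 ended with the block within genotypes and in a fit to the groups compared alone. Ndufb1 was higher by 0.62 ± 0.15 and 1.79 ± 0.15, and Cox4i2 by 0.31 ± 0.09 in p50-/-IL10-/- cells. Leaving out any 1 array of the groups compared lowered the number of calls in both genotypes. In IL10-/- cells the share of members called then stayed below that of all genes, as it was with all arrays. In p50-/-IL10-/- cells the share of members fell below that of all genes without unstimulated array 2. It was near that of all genes without array 2 of LPS with IL-10, and larger without array 1 of either group.

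Few members differed between genotypes at a given stimulus. Without stimulus 0 of 87 were called, where 2.57% of all genes were (limma). At an unadjusted p under 0.05 there were 11 members (12.6%, against 13.8% of all genes). With LPS 2 were called, both higher, where 12.4% of all genes were called (5.66% higher and 6.72% lower): Ndufb1 was higher in p50-/-IL10-/- cells by 1.31 ± 0.15 (adjusted p 0.000362) and Ndufaf7 by 0.43 ± 0.10 (adjusted p 0.0187). In the groups given both agents 4 were called, where 18% of all genes were (7.58% higher and 10.4% lower). Ndufb1 (1.20 ± 0.15) and Cox6a2 (0.46 ± 0.12) were higher in p50-/-IL10-/- cells, and Ndufaf4 (-0.57 ± 0.14) and Ndufaf1 (-0.33 ± 0.09) lower. The LPS call of Ndufaf7 ended without array 1 of LPS in either genotype and in a fit to the 4 arrays compared (limma, adjusted p up to 0.146). Without array 1 or array 2 of LPS with IL-10 in those cells 1 of the 4 was left, and that 1 was Ndufb1. Without array 2 of that group in IL10-/- cells Ndufb1 was again the only one of the 4 called, and without its array 1 the call of Ndufaf4 ended.

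Averaged over the stimuli, 7 members were higher and 8 lower in p50-/-IL10-/- cells, 17.2% of the members where 25.7% of all genes were called (10.6% higher and 15.1% lower). The higher ones were Ndufb1 (0.85 ± 0.09), Cox6a2 (0.34 ± 0.07), Ndufaf7 (0.27 ± 0.06), Ndufa12, Sdhb, Ndufa9 and Ndufaf5, and the lower ones Sdhaf1 (-0.37 ± 0.11), Ndufaf4 (-0.36 ± 0.08), Cox7a2l (-0.31 ± 0.10), Uqcr11, Uqcrh, Cox6c, Ndufa3 and Ndufs8. Assembly factors made 5 of these 15, and 9 of the 87 members. The calls of Ndufb1, Cox6a2, Ndufaf7, Sdhb, Ndufaf4 and Uqcr11 passed in every alternative that tested them, and those of the others did not. Ndufa12 was not called without probe sets marked as shared (limma, adjusted p 0.624). Cox6c was not called with the mean of all probe sets (limma, adjusted p 0.475). Cox6a2, the muscle isoform, read 7.08 and 6.97, 7.21 and 7.05, and 7.25 and 6.88 in IL10-/- cells, and 7.44 and 7.27, 7.34 and 7.37, and 7.44 and 7.62 in p50-/-IL10-/- cells, in the order none, LPS and LPS with IL-10. The count ran from 6 (without array 1 of LPS with IL-10 in p50-/-IL10-/- cells) to 16 when 1 array was left out. Markers of other cells moved with the genotype: the 7 neutrophil genes averaged 8.89 to 9.12 over IL10-/- arrays and 8.24 to 8.43 over p50-/-IL10-/- arrays (7 of 7 above the lower quartile on all arrays). The 6 stromal genes averaged 6.00 to 6.57 and 5.55 to 5.86 (3 of 6 above it), and the 5 dendritic cell genes 5.99 to 6.22 and 6.55 to 6.85 (2 of 5). In the last list Itgax, which macrophages also express, ran from 7.49 to 10.96 over the 12 arrays, and the other 4 had narrower ranges, the widest being Flt3 from 7.14 to 7.49. Their part in the genotype differences was not tested.

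More than 1 probe set exists for 46 of the 87 members. Of the members called with LPS in IL10-/- cells, 11 have others, and in all 11 these differ in the same direction, with another probe set called in 4. Of those called in p50-/-IL10-/- cells 26 have others, all of the same direction in 23 and called in 13. In neither genotype was another probe set called in the opposite direction. Among the members called between genotypes averaged over the stimuli, 6 have others, all of the same direction in 5 and called in 4. The other probe set of Cox6c differed by 0.035, opposite to the one used, and was not called. Probe sets that name several genes were left out, among them those of Ndufb4, Ndufa11 and Ndufs6. No subunit encoded by mitochondrial DNA was measured.

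Other nuclear genes of mitochondria were counted in the same LPS comparisons, in which 17.1% and 22.1% of all genes fell and 7.76% and 10.3% rose. Of 9 genes of electron carriers and other entries to ubiquinone, 3 fell and 2 rose in IL10-/- cells and 4 fell and 2 rose in p50-/-IL10-/- cells. Gpd2, the glycerol phosphate dehydrogenase of the inner membrane, rose by 1.89 and 1.42, and Etfdh, which passes electrons from fatty acid oxidation, fell by 0.65 and 0.68. Of 17 genes for assembly of complexes III and IV and copper delivery, 8 fell and 2 rose, and 9 fell and 4 rose. Among those with the largest changes were Coa6, with differences of -1.07 and -1.21, and Surf1, with -0.85 and -0.73, both factors of complex IV. Of 17 citric acid cycle genes 6 fell and 1 rose, and 7 fell and 1 rose, with Fh1 (fumarase) at -0.71 and -0.59 and Dld at 0.47 and 0.64.

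Of 13 fatty acid oxidation genes, 8 and 10 fell and 0 rose. Acadm, which starts the oxidation of medium chains, fell by 0.95 and 0.71 and Echs1, the enoyl hydratase, by 0.83 and 0.98. Of 74 mitochondrial ribosomal protein genes, 25 fell and 2 rose in IL10-/- cells and 43 fell and 1 rose in p50-/-IL10-/- cells, with Mrpl41 at -0.93 and -1.28. Of 45 cytosolic ribosomal protein genes 1 and 7 fell and 0 rose. Among 15 regulators of mitochondrial biogenesis 3 and 6 fell and 2 and 2 rose; Gabpb1, a partner of the ETS factor GABPA, rose by 0.79 and 0.97, and Polg2, an accessory subunit of the mitochondrial DNA polymerase, fell by 0.75 and 0.74. Of 10 carriers and pores 3 and 3 fell and 1 and 0 rose, and of 19 import genes 4 and 5 (21.1% and 26.3%) fell and 2 and 1 rose, near the shares of all genes. In redox defence 2 and 4 of 8 fell and Sod2, the manganese superoxide dismutase, rose by 1.57 and 1.34. In fusion, fission and mitophagy 3 and 4 of 9 fell, and Dnm1l, the fission GTPase, rose by 0.44 and 0.55. These lists are described by their counts only.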

How the data were processed

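Gene expression was measured in 12 samples with 1 Affymetrix array each. The authors deposited log2 values of 22690 probe sets in 1 table. The submitters' processing notes name RMA and limma, with no version or role. RMA aligns the distributions of the arrays and compresses changes of dim genes. The 64 control probe sets and those with no or several gene symbols were left out, which kept 20380. For each gene the brightest probe set, by its mean over all arrays, was kept, giving 12393 genes, and the members came from 160 probe sets. No build of the probe annotation was stated; gene identifiers of all 87 members matched the RefSeq gene table of GRCm38.p6, with 0 changed symbols.

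Group means were fitted in 1 model to all 12 arrays with limma 3.58.1 in R 4.3.3 (lmFit, eBayes; 6 residual and 4.47 prior degrees of freedom). In 12 contrasts a gene was called at a two-sided Benjamini-Hochberg adjusted p under 0.05 over all genes. The ± values are standard errors of the fit, with 2 arrays per group. Arrays give no depth, and their number limits the precision; the median standard error of a difference was 0.089 over the members. The steps were tested on simulated data. Named genes were drawn mainly from the 10 largest called changes in each direction, fixed reference subunits, tissue isoforms, and up to 4 genes from each other list. Members and lists were chosen with earlier results of these data known. Alternatives were another moderation, a fit to the groups compared, the replicate number as a block, centred arrays, other probe set choices, a filter on dim genes and leaving out each array. Transcripts of Nfkb1 are not reported here.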

Additional observations from a re-analysis of the deposited data

Results flagged for a closer look

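The response of Ndufb1 to LPS differed between the genotypes by the test of that difference: 1.28 on the log2 scale (exactly 1.2824 as fitted, SE 0.21, limma, adjusted p 0.0180), with rises of 0.86 in IL10-/- cells and 2.14 in p50-/-IL10-/- cells. Of the 87 respiratory chain genes it was the only one called in that test. The call was kept in all 8 alternatives that used all arrays of the comparison, and ended in 5 of the 8 fits without 1 array. No group had the 4 arrays needed to look for single arrays far from the rest.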

How the results depend on the processing

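No call among the named genes reversed its direction in the alternatives tried, and the cause of the changes below was not tested. Uqcrq, not called otherwise, changed sign without probe sets marked as shared: from -0.013 to 0.30 with IL-10 in p50-/-IL10-/- cells, and from -0.15 to 0.27 (limma, adjusted p 0.0363) between genotypes given both agents. With the replicate number as a block (replicate block) the calls among the members were 25 and 44 with LPS in IL10-/- and p50-/-IL10-/- cells, against 23 and 43, and 29 and 45 with the block within genotypes. That block within genotypes added 1 call between unstimulated genotypes, Cox7a2l (-0.40 ± 0.08, limma, adjusted p 0.0194), against 0. Deviations of arrays with the same number correlated at 0.40 to 0.59 between groups of IL10-/- cells, at -0.49 to 0.28 between groups of p50-/-IL10-/- cells and at -0.32 to 0.30 across genotypes, so the numbers may pair the IL10-/- arrays and were not taken to pair the others. With the groups compared alone in the fit, LPS in IL10-/- cells gave 9 calls (10.3% of members, against 15.4% of all genes). The genotypes with LPS gave 1 (1.15%, against 4.69%). Without probe sets marked as shared, IL-10 in p50-/-IL10-/- cells gave 1 call, the genotypes with LPS 1 (Ndufb1) and the genotypes with LPS and IL-10 8; the mean of all probe sets gave 8 there too, 3 higher and 5 lower in both. With arrays centred, LPS gave 16 calls in IL10-/- cells (18.4% of members, against 23.4% of all genes). It gave 31 in p50-/-IL10-/- cells (35.6% of members, against 30.9% of all genes). Without 1 array, in fits that assume the lone array of its group to vary like the others, the counts ran from 8 to 29 and 15 to 39 for LPS, 2 to 5 and 17 to 42 for LPS with IL-10 against no stimulus, 1 to 3 for the genotypes with LPS, 1 to 4 when IL-10 was present too, 6 to 16 averaged over the stimuli, and 0 to 1 for the genotype difference of the LPS response. The other 4 comparisons stayed at 0. Of the named calls, 7 of 11 and 8 of 15 with LPS passed in every alternative that tested them, in the order IL10-/- and p50-/-IL10-/-. So did 1 of 10 and 8 of 16 for LPS with IL-10 against no stimulus, 1 of 2 and 1 of 4 for the genotypes with LPS and with both agents, 6 of 15 averaged over the stimuli, and 0 of 1 for the genotype difference of the LPS response.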
